A study of Mus musculus with 4 samples.

Results

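Cytoplasmic ribosomal proteins form, with the ribosomal RNAs, the ribosomes that translate nuclear-encoded mRNA, and their genes were analysed in single cells of mouse bone marrow (BM) and spleen. The members were all genes whose symbol was Rpl or Rps followed by a number, with an optional a, x, l or y, together with Rplp0 to Rplp2 and Rpsa. This left out pseudogenes, ribosomal S6 kinases and mitochondrial ribosomal proteins. The rule found 80 of the 32285 genes counted, 49 of the large (60S) and 31 of the small (40S) subunit. Single-cell RNA-sequencing libraries were made from BM of control mice (CBM), BM of tumor-bearing mice (TBM), control spleen (CS) and spleen of tumor-bearing mice (TS), and values are given in this library order unless stated. All mice were female C57BL/6J animals of 8 to 16 weeks, and tumors were grown from PyMT-B6 cells, a mammary tumor line from MMTV-PyMT mice, which express polyoma middle T antigen from a mouse mammary tumor virus promoter. Cells were depleted of lineage-positive cells, sorted for c-Kit+ progenitors and CD45- stromal populations, and mixed before capture, so class sizes reflect the sort. Each group was 1 library of an unstated number of mice, so differences between groups have no replicate check and no test was made. Intervals are exact 95% intervals that cover counting error only.

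Ribosomal protein genes are among the most abundant transcripts of growing cells. Most of their mRNAs begin with a stretch of pyrimidines, the 5′ terminal oligopyrimidine (TOP) motif, through which mTORC1 and LARP1 set their translation together. In blood, loss of 1 copy of many of these genes causes Diamond-Blackfan anemia, in which erythroid progenitors fail. Values here are unique molecular identifiers (UMIs), each marking 1 captured mRNA molecule, as a share of all UMIs or as counts per 1000000 UMIs (CPM), so every value is relative to the other mRNAs of the same cells.

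Start sites are shown first because the TOP motif lies at the start of the mRNA. The search depends on the annotated start, so a run missing from a window does not show that the mRNA lacks the motif. RefSeq promoters (GRCm38.p6) were found for 60 members. Of these, 26 (43.3%) had an unbroken run of at least 8 bases that were C or T, on the gene's strand, in the 30 bases around an annotated start, against 14.1% of 20267 counted genes. Rps24 had the highest level in the progenitors described next, Rps27 and Rpl39 are short members that were lowest in TS, and Rps27l, Rpl39l and Rpl10l are paralogs. Capitals mark the longest run.
Rps24: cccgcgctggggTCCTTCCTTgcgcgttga
Rps27: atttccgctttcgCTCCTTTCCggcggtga
Rpl39: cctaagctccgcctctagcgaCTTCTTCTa
Rps27l: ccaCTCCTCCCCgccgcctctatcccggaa
Rpl39l: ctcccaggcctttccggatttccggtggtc
Rpl10l: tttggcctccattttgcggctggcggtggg
The windows lie at chr14:24490663-24490692 (plus strand), chr3:90213634-90213663 (minus strand), chrX:37085208-37085237 (minus strand), chr9:66946071-66946100 (plus strand), chr16:10170213-10170242 (plus strand) and chr12:66284387-66284416 (minus strand). No run of this length was in the windows of Rpl39l and Rpl10l.

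Barcodes with at least 1000 genes and at most 10% mitochondrial UMIs numbered 3497, 4340, 3236 and 5188, with median depths of 13738, 14386, 26323 and 26808 UMIs. They were clustered without ribosomal protein genes, and of 42 clusters 7 were left unnamed by the marker lists. Pairs of libraries shared 2 to 9 barcodes, against 1.67 to 3.31 by chance. The most, 9, were shared by CBM and TBM, against 2.23 by chance. Doublets were not removed. Over all kept barcodes the members took 30.5%, 29.5%, 31.0% and 31.3% of UMIs. In barcodes with at most 100 UMIs, which hold free RNA, they took 32.9%, 30.7%, 38.1% and 33.6%.

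The share of UMIs taken by the members depended on cell class. Hematopoietic stem and progenitor cell (HSPC)-like clusters, led by genes such as Hlf, Mecom, Cd34 and Flt3, had 32.4%, 31.4%, 30.2% and 29.1% (808, 914, 148 and 639 cells). Early erythroid-like clusters, which express Car1, had 32.3%, 31.5%, 32.8% and 32.4%. Of the 75 TBM cells of this class, 28 were in the shallow cluster 28, at 13.4%, and the lower quartile of single TBM cells was 13.6%. Granulocyte-monocyte progenitor (GMP)-like clusters, which express the granule proteases Elane and Prtn3, had 33.6%, 31.3%, 31.1% and 27.5%. Among named classes with at least 50 cells, these progenitors were the highest in CBM and TBM. The unnamed clusters together had 33.1% in CBM and 30.1% in TBM. Megakaryocyte-like cells had 29.6%, 29.8%, 29.5% and 29.7%, a range narrower than in the other classes with at least 50 cells in every library. For the 69 members of over 300 coding bases alone the range was 26.1% to 27.6%, wider than the 28.7% to 30.05% of early erythroid-like cells. Mast or basophil-like cells were lower, at 20.2%, 21.4%, 19.99% and 20.6%, and were also shallow, with medians of 3440.5 to 6477 UMIs. The part of depth was not tested. Dendritic-like cells of CS had 23.5% at a median of 23412 UMIs. Monocyte-like cells had 25.5% in CBM and 24.8% in TBM, and B-lineage-like cells 23.4% and 25.2%. The medians of single B-lineage-like cells did not rise, at 22.6% and 22.3%. The cells of both classes sat in different clusters, as 389 CBM monocyte-like cells were in cluster 15 and 211 of 240 TBM ones in cluster 24, and 169 of 245 CBM B-lineage-like cells were in cluster 25 and 142 of 168 TBM ones in cluster 23. Within cluster 15 the shares of CBM and TBM (29 cells) were both 25.5%. Within cluster 25 they were 23.98% and 29.6% (26 TBM cells), and within cluster 23 they were 20.8% and 22.9%. The medians of single cells were 23.7% and 29.2% in cluster 25 and 20.8% and 21.6% in cluster 23, so they were higher in TBM within each. In the 55 neutrophil precursor-like cells of TBM, led by the granule genes Ngp and Camp, the share of summed UMIs was 9.54%. The median of these single cells was 6.49%, with quartiles of 4.36% and 9.12%. Large subunit members had 1.199, 1.17, 1.21 and 1.19 times the UMIs of small subunit members in HSPC-like cells.

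**Figure D1:**
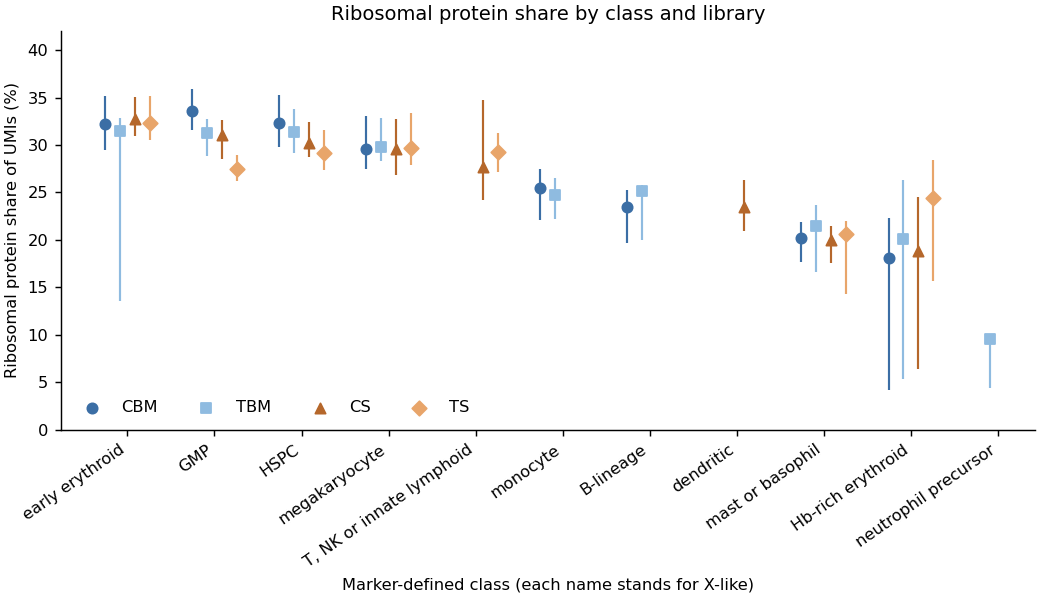
Share of UMIs (percent) held by ribosomal protein genes, by marker-defined class and library. Points are shares of summed UMIs for classes with at least 50 cells and lines span the quartiles of single cells; megakaryocyte-like cells lay at 29.5% to 29.8% and GMP-like cells between 27.5% in TS and 33.6% in CBM.

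Within the erythroid lineage the share was lower where hemoglobin was high. Hemoglobin-rich erythroid-like cells had 18.04%, 20.1%, 18.8% and 24.4%, with hemoglobin genes at 27.6%, 25.3%, 24.97% and 14.1% of UMIs. With hemoglobin and mitochondrial UMIs left out, the shares were 25.8%, 27.8%, 25.9% and 29.8%, still below the 33.5%, 33.0%, 34.0% and 33.7% of early erythroid-like cells. The quartiles of single cells ran from 4.11% to 22.3% in CBM and from 15.6% to 28.4% in TS, so the cells of these libraries overlapped. Cluster 37 (28 TBM cells), led by the adult globins, had 7.52%, against 21.99% in cluster 20 of the same library. Without hemoglobin and mitochondrial UMIs these were 18.3% and 28.6%. The early erythroid-like class held different clusters in the spleens, mainly 7 and 11 in CS and 0, 2 and 6 in TS. Of the clusters with at least 20 cells in both spleens, cluster 6 had 30.7% in CS and 30.4% in TS, cluster 7 had 32.7% and 33.1%, and the shallow cluster 28 had 20.2% and 29.9%.

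Some clusters also differed from others of their class. HSPC-like cluster 12, with the mitotic genes Pimreg and Nusap1 among its leading genes, had 30.9%, 30.1%, 28.3% and 27.8%, below the 33.3%, 32.7%, 31.1% and 30.1% of the Cd34- and Flt3-expressing cluster 9 in each library. Megakaryocyte-like cluster 18, with the mitotic gene Ckap2l among its leading genes, had 28.4%, 28.6%, 28.7% and 28.5%, below the 31.1%, 30.9%, 31.2% and 31.4% of cluster 3. Both of these clusters were deeper than the cluster they are set against. Cluster 32, led by the platelet genes Ppbp and Clec1b, had 9.43% in CS and 7.85% in TS. The highest share among clusters with at least 20 cells in a library was in T cells of cluster 36, led by Cd3d, at 36.9% in CS and 36.1% in TS. Cluster 27 of the same lymphoid class, led by Tcrg-C2 and the granzyme gene Gzma, had 25.9% and 29.0%.

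**Figure D2:**
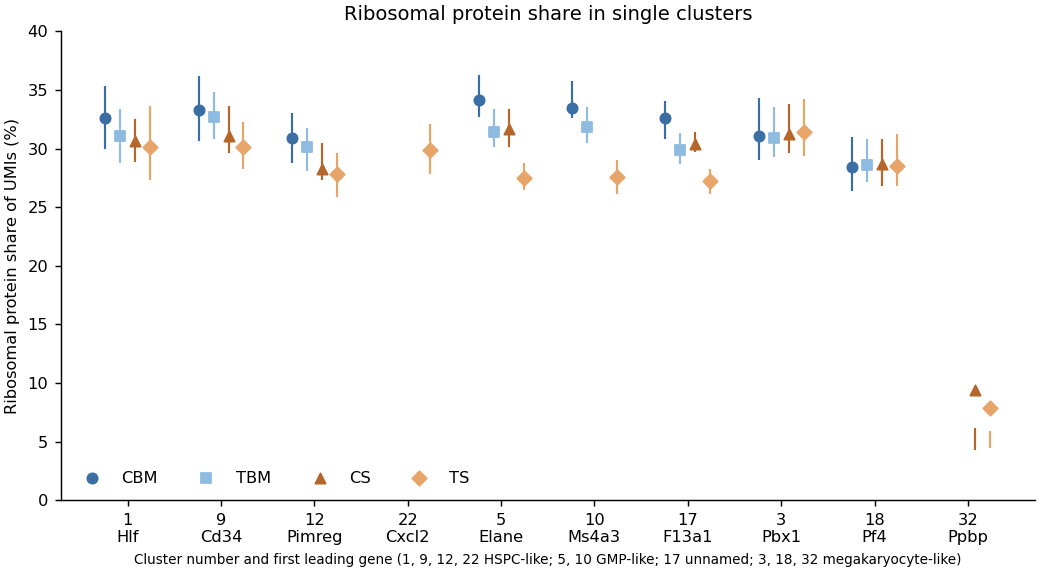
Share of UMIs (percent) held by ribosomal protein genes in 10 clusters, for libraries with at least 20 cells. Points are shares of summed UMIs and lines the quartiles of single cells; clusters 12 and 18 lay below clusters 9 and 3 in each library, and cluster 32 lay at 9.43% or below.

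In HSPC-like cells the share was slightly lower with a tumor in both organs, and lower in spleen than in BM. The log2 ratio was -0.043 (-0.045 to -0.041) in TBM relative to CBM and -0.054 (-0.058 to -0.051) in TS relative to CS. It was -0.098 (-0.10 to -0.095) in CS relative to CBM, -0.11 (-0.112 to -0.108) in TS relative to TBM, and -0.15 (-0.155 to -0.150) in TS relative to CBM. The cells overlapped widely, with 38.7% of TBM and 17.4% of TS cells above the CBM median. The class held different clusters, as 513 of the 808 CBM cells were in cluster 1 and 230 of the 639 TS cells in cluster 22, which was led by the chemokine gene Cxcl2. With cells gated on markers in place of clusters, the ratio was -0.041 for TS relative to TBM, -0.050 for CS relative to CBM, -0.031 for TS relative to CS and -0.082 for TS relative to CBM. With members of over 300 coding bases alone it was 0.0089 for TBM relative to CBM, above 0, -0.023 for TS relative to CS, -0.052 for CS relative to CBM and -0.075 for TS relative to CBM. With free RNA subtracted, TS relative to CS was -0.036. Within cluster 1 the shares were 32.6%, 31.1%, 30.7% and 30.1%. The third of cells with the fewest UMIs had 32.5% in CBM and 30.1% in TS, and the third with the most had 31.9% and 28.6%.

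GMP-like cells showed the larger difference. The log2 ratio was -0.29 (-0.289 to -0.284) in TS relative to CBM, -0.18 relative to TBM and -0.17 relative to CS. Of TS cells, 0.261% lay above the CBM median and 4.96% above the TBM median. Of the 1256 TBM cells, 384 were in cluster 14, which held 2 TS cells, and 108 were in cluster 29, which held 1 TS cell and had 8.87% in TBM and 8.21% in CBM. The third of cells with the fewest UMIs, cut within each library, had 30.6%, 25.1%, 30.4% and 28.3%. Their median depths were 3592, 3128, 5307 and 25422 UMIs, so TS lay above TBM there without a match in depth. TBM cells of middle depth, with a median of 27722 UMIs, had 32.4%, above the 28.3% of these TS cells. Cells of middle depth had 35.1%, 32.4%, 31.7% and 27.4%, and the deepest cells had 32.9%, 31.1%, 30.8% and 27.2%. In cluster 5 the shares were 34.1%, 31.4%, 31.7% and 27.5%. Cluster 10 had 33.5% in CBM, 31.8% in TBM and 27.5% in TS. Unnamed cluster 17, led by F13a1 and Prtn3, had 32.6%, 29.9%, 30.4% and 27.2%. Granule genes moved with the share in part, Elane at 6727, 4611, 5964 and 2822 CPM and Mpo at 6294, 4925, 5899 and 3149 CPM. Prtn3 had 7961, 8688, 7225 and 7314 CPM and Ctsg 3858, 4730, 3731 and 3365 CPM, each highest in TBM. The part of these granule genes in the difference was not tested.

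Of the 80 members, 77 passed the filter of a mean of 10 CPM in HSPC-like cells. Rps24, Rps12, Rpl13 and Rpl32 were among the highest, and levels are 3′ end counts that need no scaling by length. Rps24, a small subunit protein, had 8098, 8243, 7797 and 7382 CPM. Rpl32, of the large subunit, had 7172, 7007, 6938 and 6713 CPM. The 5 lowest past the filter were Rps27l, Rpl35, Rpl31, Rpl29 and Rpl7a. Rps27l, a p53 target, had 405, 383, 397 and 446 CPM, and its parent Rps27 had more in each library.

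The other paralogs were barely detected. Rpl3l, known from striated muscle, had 4, 11, 1 and 0 UMIs in HSPC-like cells. Rpl39l, known from testis, had 1, 5, 2 and 1 UMIs, where its parent Rpl39 had 5917, 3978, 4185 and 3262 CPM. Rpl10l, also known from testis, had 0 UMIs in all kept cells, which by 3 counts allows up to 0.234, 0.210, 0.933 and 0.319 CPM in HSPC-like cells. Reads of like copies may be assigned to either, so the short pairs are shown as coding sequence from GENCODE vM21 (GRCm38), with bases that differ in capitals. The Rps27 pair is identical at 194 of 255 bases and the Rpl39 pair at 133 of 156.
Rps27: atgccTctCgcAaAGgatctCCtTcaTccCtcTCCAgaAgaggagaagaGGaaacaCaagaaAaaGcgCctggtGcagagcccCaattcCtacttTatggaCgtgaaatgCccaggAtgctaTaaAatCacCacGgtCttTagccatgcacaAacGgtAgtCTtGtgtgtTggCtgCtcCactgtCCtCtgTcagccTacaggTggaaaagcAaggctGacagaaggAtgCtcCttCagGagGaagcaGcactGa
Rps27l: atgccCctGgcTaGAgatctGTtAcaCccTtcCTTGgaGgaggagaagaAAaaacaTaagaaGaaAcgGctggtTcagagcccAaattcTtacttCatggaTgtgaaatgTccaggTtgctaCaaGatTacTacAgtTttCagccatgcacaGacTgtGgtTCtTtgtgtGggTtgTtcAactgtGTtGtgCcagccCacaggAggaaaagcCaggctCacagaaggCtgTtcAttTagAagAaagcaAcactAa
Rpl39: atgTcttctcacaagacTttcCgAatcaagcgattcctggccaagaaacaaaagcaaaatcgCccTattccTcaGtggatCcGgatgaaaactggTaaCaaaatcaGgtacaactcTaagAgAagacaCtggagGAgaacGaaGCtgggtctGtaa
Rpl39l: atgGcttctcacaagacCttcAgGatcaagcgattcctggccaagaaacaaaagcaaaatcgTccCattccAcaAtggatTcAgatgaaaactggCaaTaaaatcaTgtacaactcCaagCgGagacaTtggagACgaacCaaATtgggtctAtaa
The genes lie at chr3:90212522-90213651 (Rps27), chr9:66946086-66949516 (Rps27l), chrX:37082520-37085402 (Rpl39) and chr16:10170226-10174911 (Rpl39l).

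In HSPC-like cells the ratio between TS and CBM tended to rise with the coding length of the members, and short members had most of the lowest ratios. Of 77 members, 52 were lower in TS than in CBM in HSPC-like cells. There 49.1% of all genes past the filter, and 34.5% of the genes averaging 100 CPM or more, were lower. In GMP-like cells 68 members were lower, where 37.2% and 28.3% of these genes were. Relative to TBM, 64 members were lower in TS in HSPC-like and 73 in GMP-like cells. The members' median log2 ratios to TBM were -0.10 and -0.17. Over all genes the medians were 0.010 and 0.10, above 0, so more of all genes were higher than lower in TS. The exact share of all genes lower than in TBM is not given here. In HSPC-like cells, 11 members were at least 1.5-fold lower in TS than in CBM and 0 were higher by that much, where 5.75% of 8355 genes were lower and 4.72% higher. The median log2 ratio was -0.10 over 77 members and 0.0088 over all genes. The 11 were Rps29, Rps27, Rps28, Rpl38, Rpl35, Rpl37a, Rps21, Rpl37, Rpl39, Rpl36 and Rpl36a. All but Rpl35, Rpl36 and Rpl36a have at most 300 coding bases, a limit chosen after the values were seen, as was the naming of Rps21, Rpl36 and Rpl36a. Of the 11 members this short, 10 passed the filter, with a median log2 ratio of -0.91 against -0.041 for the 67 longer ones. The 21 members of over 600 coding bases had a median of 0.083. Across the 77 members, which share their libraries, Spearman's rho of the ratio with coding length was 0.75, and 0.42 with transcript length.

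Rps29, a zinc-binding small subunit protein, had 5730.0, 4279, 3867 and 2617 CPM in HSPC-like cells. Rps27 had 3169.9, 2301, 2180.4 and 1450.4 CPM. Rps28, which a counted antisense gene, Kank3, overlaps, had 4007, 2785, 2795 and 1865 CPM. In each, CBM was highest, TBM and CS lay between, and TS was lowest, with log2 ratios of TS to CBM of -1.13 (-1.15 to -1.11), -1.13 (-1.16 to -1.10) and -1.10 (-1.13 to -1.08). Rpl38, tied in embryos to translation of Hox mRNAs, had 2685, 1966, 2013 and 1321 CPM. Rpl37 had 4466, 3009, 3289 and 2446 CPM. Rpl37a had 4302, 2916, 2997 and 2285 CPM. Rpl35 had another pattern, at 1497, 1279, 1328 and 737 CPM, with TS far below the others. This was not particular to HSPC-like cells, as free RNA had 1356, 1210, 1841 and 819 CPM of Rpl35. Early erythroid-like, GMP-like, megakaryocyte-like and mast or basophil-like cells also had the lowest Rpl35 level in TS. Its antisense neighbours Wdr38 and Arpc5l overlap it. Rps27l, of the same coding length as Rps27, was not lower in TS, with a ratio to CBM of 0.14 (0.083 to 0.20).

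For TS relative to CBM, the 3 highest ratios belonged to longer members, which were 67 of the 77 past the filter. Rpl8, a large subunit protein next to the peptidyl transferase center, had 3102, 3648, 3344 and 3815 CPM, with a log2 ratio of TS to CBM of 0.30 (0.28 to 0.32). Rplp0, the base of the stalk that recruits elongation factors, had 3511, 4036, 4028 and 4221 CPM (0.27). Rpl14 had 2844, 3232, 2869 and 3381 CPM (0.25).

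In the comparison of TBM with CBM, 0 members passed 1.5-fold in either direction, where 1.73% of genes were higher and 1.7% lower. The lowest ratios were those of Rpl39, Rpl37 and Rpl37a (-0.57, -0.57 and -0.56) and the highest those of Rpl8, Rplp0 and Rps6 (0.23, 0.20 and 0.19). Between CS and CBM 0 members passed either, where 2.81% of genes were higher and 1.61% lower, with Rps29, Rps27 and Rpl37a lowest and Rplp0, Rpl10 and Rpl8 highest. Between TS and CS, Rpl35, Rpl38 and Rps27 were at least 1.5-fold lower in TS (4.86% of genes) and 0 were higher (2.98%), and Rpl14, Rpl8 and Rps27l had the highest ratios. Between TS and TBM, Rpl35, Rps29 and Rps27 were lower in TS (2.35% of genes) and 0 were higher (2.43%), and Rps27l, Rps2 and Rpl13 had the highest ratios. These comparisons share libraries.

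**Figure D3:**
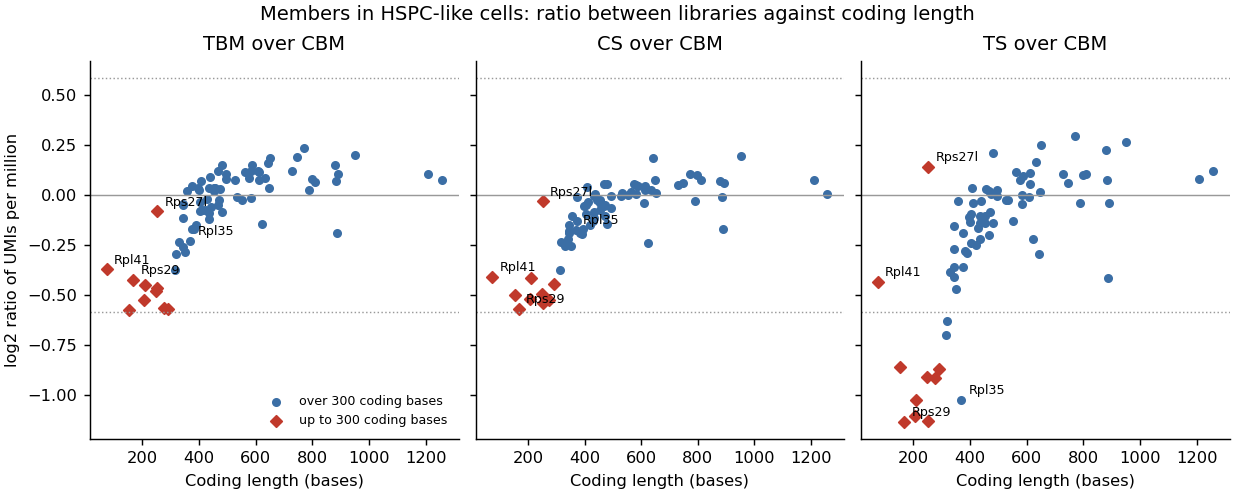
log2 ratio of CPM against coding length (bases) for the 77 members past the filter in HSPC-like cells, in TBM, CS and TS relative to CBM. Red diamonds are members of at most 300 coding bases (medians -0.47, -0.50 and -0.91) and dotted lines mark 1.5-fold; Rps27l was the only red diamond above 0 for TS.

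The short members followed the library in other classes too. They took 12.1%, 8.94%, 9.29% and 7.31% of the ribosomal protein UMIs of HSPC-like cells. In megakaryocyte-like cells they took 11.7%, 8.74%, 9.03% and 7.15%, and in GMP-like cells 12.2%, 8.93%, 9.503% and 7.68%. Free RNA had 12.4%, 9.25%, 9.38% and 7.59%. The order from CBM through CS and TBM to TS was the same in free RNA and in the 6 classes with at least 50 cells in each library. Differences in the making of the libraries and differences between the mice cannot be told apart. Among other genes with a mean of at least 100 CPM in HSPC-like cells, for the 99 with at most 300 coding bases the TS to CBM log2 ratio had a median of -0.016, and for the 1287 longer ones 0.16.

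**Figure D4:**
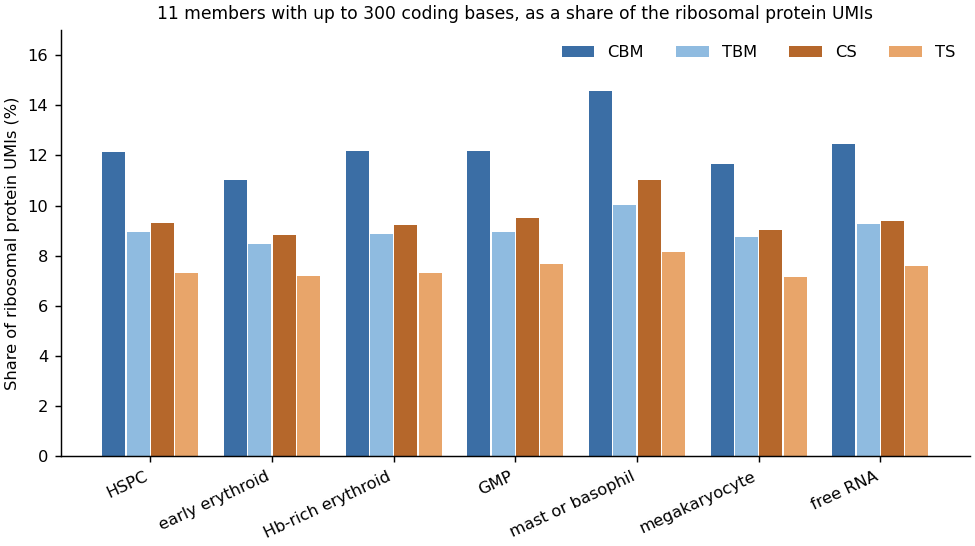
Share (percent) of ribosomal protein UMIs held by the 11 members with at most 300 coding bases, in 6 classes and in free RNA. Bars start at 0; CBM was highest (11.02% to 14.6%) and TS lowest (7.15% to 8.15%) in each group of bars.

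Without the short members the difference of TS from CBM became smaller in HSPC-like and GMP-like cells and larger in other classes. The log2 ratio went from 0.0052 to 0.066 in early erythroid-like, from 0.0069 to 0.079 in megakaryocyte-like and from 0.44 to 0.52 in hemoglobin-rich cells. The 69 longer members took 28.4%, 28.6%, 27.4% and 27.0% of the UMIs of HSPC-like cells, so that TBM was no longer below CBM. In GMP-like cells they took 29.5%, 28.5%, 28.1% and 25.4%, with log2 ratios to CBM of -0.050 in TBM and -0.21 in TS. There 59 of the 67 past the filter were lower in TS than in CBM, where 37.2% of all genes past the filter, and 28.3% of the genes averaging 100 CPM or more, were lower. Over all members of that class 13 were at least 1.5-fold lower in TS than in CBM and 0 higher, where 5.14% of genes were lower and 12% higher. In early erythroid-like cells 7 members were lower and 0 higher (11% and 3.88% of genes). In megakaryocyte-like cells 8 were lower and 0 higher (3.78% and 4.75%). Hemoglobin-rich cells had 1 lower and 24 higher (6.67% and 24.2%). In mast or basophil-like cells 10 were lower and 5 higher (20% and 18.8%).

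The make-up of the ribosomal protein UMIs differed between classes. Rps2, a small subunit protein at the mRNA entry site, took 2.01% of them in early erythroid-like, 1.78% in GMP-like, 1.28% in HSPC-like and 0.590% in mast or basophil-like cells of CBM. In TBM the same classes had 2.46%, 2.17%, 1.46% and 1.15%. The antisense gene Snhg9 overlaps Rps2. Rps9 took 1.32% in early erythroid-like and 2.18% in mast or basophil-like cells of CBM, and 2.98% in neutrophil precursor-like cells of TBM. Rps27 took 2.00% in mast or basophil-like, 1.44% in B-lineage-like and 0.773% in GMP-like cells of CBM. In mast or basophil-like cells of the other libraries it took 0.963% in TBM, 1.60% in CS and 0.772% in TS, a range of 2.60-fold over libraries against 2.31-fold over class means. Rpl38 took 1.60% in mast or basophil-like and 0.699% in hemoglobin-rich cells of CBM, and its range over libraries within a class, 2.46-fold, was also wider than over class means, 2.13-fold. Rps27l took 0.119% in mast or basophil-like and 0.215% in hemoglobin-rich cells of CBM. The mast or basophil-like class was mainly cluster 8 in CBM and CS and clusters 21 and 26 in TBM. Its Rps2 share was 0.590% and 0.793% in CBM and CS, and 1.15% and 1.22% in TBM and TS.

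**Figure D5:**
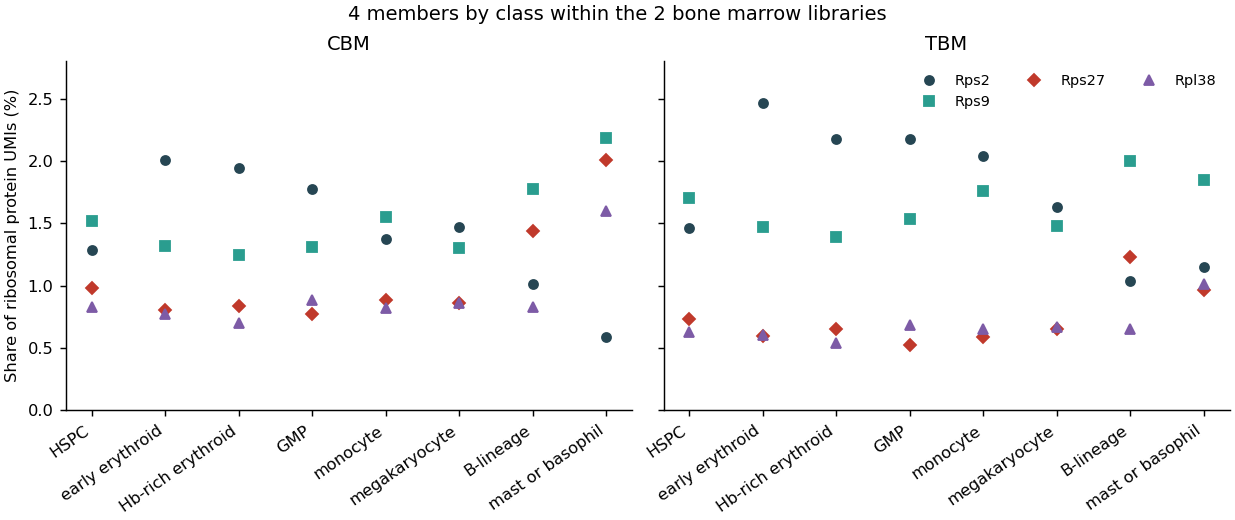
Share (percent) of ribosomal protein UMIs held by Rps2, Rps9, Rps27 and Rpl38 in 8 classes of CBM and TBM. Rps2 was highest in early erythroid-like cells (2.01% and 2.46%), and the other genes were highest in mast or basophil-like or B-lineage-like cells.

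Members linked to Diamond-Blackfan anemia summed to 69400.2, 65396, 63359 and 58259 CPM in HSPC-like cells and to 69979, 61758, 63595 and 52935 CPM in GMP-like cells. Of 17 such genes, Rps29, Rps27, Rps28 and Rpl35 were at least 1.5-fold lower in TS than in CBM in HSPC-like cells, where 5.75% of all genes were. These are 3 short members and Rpl35, all described above, and the median log2 ratio of the list was -0.13 against -0.10 over all members. Rps19, the gene most often mutated in the disease, had 5722, 5866, 5399.9 and 5333 CPM. Rpl5, which with Rpl11 binds MDM2, had 2917, 3137, 3045 and 2842 CPM. Rpl11 had 3573, 3555, 3599 and 3518 CPM, nearly the same level in each library.

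Genes that build ribosomes were mostly higher in TS than in CBM in HSPC-like and GMP-like cells, and their sum was higher in other classes too. Of 28 ribosome biogenesis genes, 25 had a higher level in TS than in CBM in HSPC-like cells, where 50.9% of all genes past the filter, and 65.5% of the genes averaging 100 CPM or more, were higher. Their median log2 ratio was 0.36, against 0.0088 and 0.13 in those sets. By at least 1.5-fold 2 were higher, a share near the 4.72% of all genes. Their summed level was 4442, 5065, 4768 and 5664 CPM. In GMP-like cells 14 were at least 1.5-fold higher and 0 lower, where 12% of all genes were higher and 5.14% lower. Their median there was 0.58, against 0.13 over all genes and 0.26 over the genes averaging 100 CPM or more. The sums were 4859.7, 6016, 5361 and 7881 CPM. Npm1, a nucleolar chaperone counted among the other TOP mRNAs, had 2078, 2993, 2342 and 4132 CPM in GMP-like cells. Nhp2, a protein of the box H/ACA particles that modify ribosomal RNA, had 251, 387, 265 and 528 CPM there. In cluster 5 alone the biogenesis sums were 4912, 6114, 5484 and 7808 CPM. The sum did not run against the members' share in every class, as hemoglobin-rich cells of TS had both the highest share and the highest sum of the class, 2988 CPM against 1686 in CBM, and megakaryocyte-like cells had 5462, 5905, 5735 and 5648 CPM. Early erythroid-like cells had sums of 6981, 7624, 7991 and 8893 CPM, and mast or basophil-like cells 1363, 2156, 1972 and 2269 CPM.

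Other genes of translation gave further values for TS relative to CBM. Of 78 mitochondrial ribosomal protein genes, 11 were at least 1.5-fold higher and 0 lower in HSPC-like cells (median log2 ratio 0.31), where 4.72% of all genes were higher and 5.75% lower. In GMP-like cells 28 were higher (median 0.55), where 12% of all genes were. Of 15 other TOP mRNAs, 0 passed 1.5-fold in HSPC-like cells and the median was 0.11. The 7 ribosomal protein genes outside the rule, such as Fau, had a median of -0.17 and 0 past 1.5-fold. Fau, a fusion of a ubiquitin-like protein and a ribosomal protein, had 4001, 3810, 3602 and 3303 CPM. The 14 regulators, from Myc to Eif4ebp1, had a median of -0.0056 and 0 past 1.5-fold. Of 9 p53 response genes 5 passed the filter and 2 were at least 1.5-fold higher (4.72% of all genes), with the cell cycle inhibitor Cdkn1a at 123, 176, 164 and 260 CPM.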

How the data were processed

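Single-cell 3′ RNA libraries (10x Genomics) of CBM, TBM, CS and TS were analysed. The deposited values are raw UMI counts per gene and barcode, which the authors made with Cell Ranger (version 4.0 and build mm10 per the submitters' processing notes), and the ambient-RNA step of the study's methods was not applied to them here. Barcodes with at least 1000 genes and at most 10% mitochondrial UMIs were kept. The software was Python 3.11.15, numpy 2.4.6, scipy 1.17.1, pandas 2.3.3, scikit-learn 1.9.0, igraph 0.11.9, leidenalg 0.10.2 and matplotlib 3.10.9. For clustering, counts were scaled to the same total per barcode and log-transformed, without cytoplasmic and mitochondrial ribosomal protein or mitochondrial genes. The 3000 most variable genes were standardised, and clusters were found with 50 components, 20 neighbors and resolution 1.2. Clusters were named by marker lists. No doublet caller was run. UMIs were summed per class and library where a class had at least 50 cells. Genes averaging 10 CPM or more over both libraries were set against a 1.5-fold difference. With 1 library per group no test was possible, and depth limits only the counting error. Free RNA was read from barcodes with at most 100 UMIs. Coding lengths and positions came from GENCODE vM21, and the ratio and interval code was tested on simulated data.

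Named were the paralogs, the 5 highest and 5 lowest members, the 3 highest and 3 lowest ratios of each comparison (mean of at least 100 CPM), the 6 members whose share differed most between classes and those linked to Diamond-Blackfan anemia. Members and lists were chosen with earlier results of these data known. A deposited set of 5 symbols ending in -ps was not counted as members. Some items that this rule names are not reported here.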

Additional observations from a re-analysis of the deposited data

How the results depend on the processing

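No paired analysis was possible because 1 library stands for each group. The alternatives concern HSPC-like cells, as the log2 ratio of the members' share and as the number of members past 1.5-fold. With free RNA subtracted the ratios were -0.036 (TS over CS), -0.037 (TBM over CBM), -0.14 (CS over CBM), -0.14 (TS over TBM) and -0.17 (TS over CBM). In the same order they were -0.049, -0.049, -0.094, -0.094 and -0.14 as means over cells, and -0.031, -0.041, -0.050, -0.041 and -0.082 with cells gated on markers. Without the deepest 5% of cells they were -0.062 (TS over CS), -0.050 (TBM over CBM) and -0.16 (TS over CBM). With at most 5% mitochondrial UMIs they were -0.10 (CS over CBM), -0.11 (TS over TBM) and -0.16 (TS over CBM), and without hemoglobin and mitochondrial UMIs -0.10 (CS over CBM) and -0.16 (TS over CBM). Further alternatives were chosen after seeing the data. Without the cluster led by Cxcl2 the ratios were -0.064 (TS over CS), -0.12 (TS over TBM) and -0.16 (TS over CBM). With the members of over 300 coding bases alone they were -0.023, 0.0089, -0.052, -0.084 and -0.075, so TBM over CBM reversed, which the removal of the short members brings about by construction. Of 55 ratios, 30 moved by more than the counting interval, 1 reversed and 24 did not.

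At a ratio of 5 to 4 in place of 1.5-fold, 13, 10, 10, 10 and 18 of 77 members passed, where 28.2%, 16.5%, 19.0%, 19.2% and 34.5% of all genes did, in the same order of comparisons. The number was 1 for TBM over CBM as a mean over cells (3.70% of all genes), and 1 for CS over CBM with free RNA subtracted (5.65%). With at least 1 UMI in both libraries it was 2 for TBM over CBM and 1 for CS over CBM, all higher (21.2% and 21.9% of all genes in either direction). Without the Cxcl2-led cluster it was 5 for TS over TBM, where the share of all genes went from 4.78% to 8.68%. Among the 67 members of over 300 coding bases it was 1 (TS over CS), 1 (TS over TBM) and 3 (TS over CBM), all lower. Of all genes, 4.86%, 2.35% and 5.75% were lower by 1.5-fold in these comparisons. The other 52 of 65 numbers stayed within 1.5 times. The cause of these shifts was not tested.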
